A study of Mus musculus with 8 samples.

Results

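A set of 1784 stretches of the mouse genome lay in lamina associated domains (LADs) of preadipocytes, of adipocytes and of adipocytes with a double knockdown of Tmem120a and Tmem120b, but outside the LADs of adipocytes with knockdown of Tmem120a alone. They were found by bp: the overlap of the first 3 LAD lists was taken, every base in a LAD of the Tmem120a knockdown list was removed, and remaining stretches of at least 8 kb were kept. Without the length limit there were 2739 such stretches, and the 4 lists hold 19150 LADs in all. The stretches are called members below, and they were chosen by the LAD positions of the 4 lists themselves, so their absence from the Tmem120a knockdown list is the rule and not a result.

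The cells were 3T3-L1, an established mouse line that differentiates from preadipocytes to fat cells in culture. The preadipocytes were taken undifferentiated at day 0 and are labelled untreated, while the other 3 conditions were taken at day 9 of differentiation and are labelled as carrying control non-target shRNA, Tmem120a shRNA or Tmem120a/b shRNA. All adipocytes were transduced at day 6 with a lentivirus encoding Dam or LaminB1-Dam, and preadipocytes received the same viruses. The shRNAs were carried by stable lines, so a knockdown and the line that carries it cannot be told apart, nor can shRNA and differentiation between the preadipocyte and the other lists. Each list rests on 1 LaminB1-Dam library and 1 Dam library. No value below therefore has a spread between replicates, and no test between conditions was possible. The lists give positions without scores, so depth and the height of each LAD are unknown, and neither the cell type nor the knockdown could be checked against marker genes.

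The nuclear lamina is a mesh of lamin proteins beneath the inner nuclear membrane, and LADs are the parts of chromosomes that lie against it, usually poor in genes and in active transcription. DamID finds them by fusing a lamin to a bacterial methylase, Dam, which marks the adenine of GATC in nearby DNA, with free Dam as the control for accessibility. Tmem120a and Tmem120b are paralogous membrane proteins of the nuclear envelope with a role in fat cell differentiation.

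The method reads the genome from GATC to GATC, so the ends of members are shown first. The 60 bases around both ends of the 3 longest members (mm9, plus strand) are given with GATC in capitals. Their windows are chrX:121612566-121612625 and chrX:121735064-121735123, chr14:104856267-104856326 and chr14:104977863-104977922, and chr16:20969574-20969633 and chr16:21081147-21081206.
chromosome X, left end: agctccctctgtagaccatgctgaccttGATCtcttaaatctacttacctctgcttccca
chromosome X, right end: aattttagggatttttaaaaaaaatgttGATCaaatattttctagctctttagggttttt
chromosome 14, left end: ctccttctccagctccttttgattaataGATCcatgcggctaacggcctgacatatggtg
chromosome 14, right end: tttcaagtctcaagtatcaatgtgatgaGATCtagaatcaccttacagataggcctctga
chromosome 16, left end: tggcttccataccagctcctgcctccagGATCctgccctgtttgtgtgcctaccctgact
chromosome 16, right end: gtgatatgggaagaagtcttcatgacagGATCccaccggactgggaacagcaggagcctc

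The same held nearly throughout: 3564 of 3568 member ends (99.9%) fell at a GATC. A member held between 9 and 382 GATC sites, with a median of 53, and 88 members (4.93%) held under 20. The bases between these sites are what a LAD call was made from, so a member with few sites rests on few fragments.

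Members summed to 44.1 Mb, and with the shorter stretches the length lost from the Tmem120a knockdown list was 5.01% of the length in LADs of the other 3 lists. The same rule applied to the other lists gave 2649 stretches (68.9 Mb) that the double knockdown list alone lacked, 1139 (30.9 Mb) for the preadipocyte list and 964 (26.9 Mb) for the adipocyte list. The shares of LAD length behind these were 7.49%, 3.5% and 3.05%. The Tmem120a knockdown list thus lacked less on its own than the double knockdown list, and more than either list without knockdown. The lists stand in the same order by their number of LADs: 6971 (double), 5723 (Tmem120a), 3914 (preadipocyte) and 2542 (adipocyte). The part of that number in the order was not tested. The order of the 4 counts was kept under the 8 alternatives that could be applied to all 4 lists. A further 1172 stretches, 32.4 Mb, were lacked by both knockdown lists and are not members. When the double knockdown list was left out of the rule, the summed length rose to 79.0 Mb.

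Most members were short relative to LADs. Their median length was 20.5 kb, with 9.80 kb at the 10th and 43.9 kb at the 90th percentile, while stretches in LADs of all 4 lists had a median of 73.6 kb. There were 365 members (20.5%) of 8 to 12 kb, 500 (28.0%) of 12 to 20 kb, 677 (37.9%) of 20 to 40 kb, 222 (12.4%) of 40 to 80 kb and 20 (1.12%) above 80 kb. The 3 members just inside the limit measured 8002, 8015 and 8016 bp, and the 3 stretches just outside it 7991, 7989 and 7959 bp. The medians of the stretches that another list alone lacked were each 20.8 kb, close to that of the members.

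**Figure D1:**
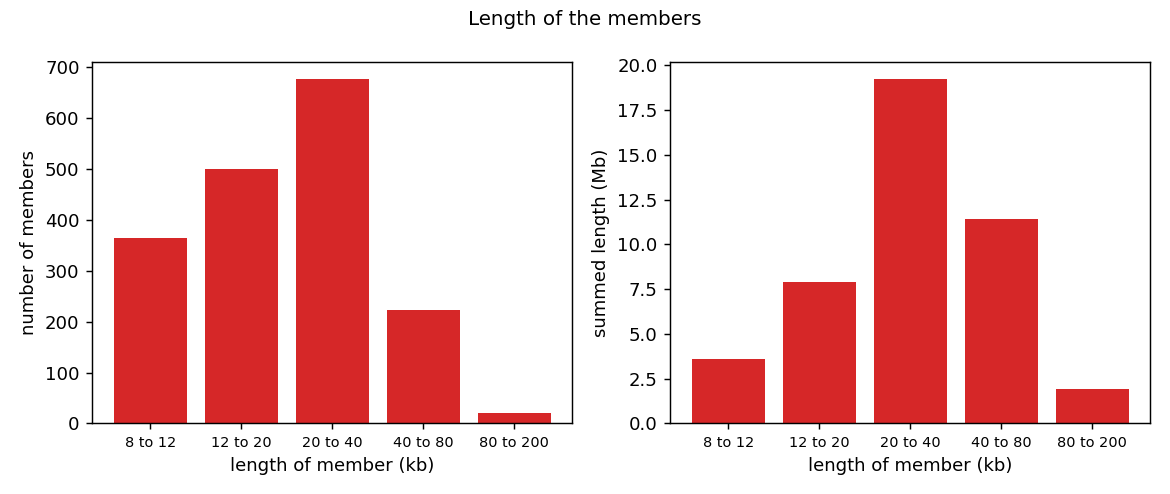
Number of members (left panel) and their summed length in Mb (right panel) by length of the member in kb. The class of 20 to 40 kb holds the most members, 677, and the class above 80 kb holds 20.

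The question of where the members lie within LADs was asked through their flanks. At 691 members (38.7%, 95% Wilson interval 36.5 to 41.0) a Tmem120a knockdown LAD began directly at both ends, so that the member was a hole in that list. At 778 (43.6%) this was so at 1 end, and at 315 (17.7%) at neither. These intervals cover only the counting of regions, and neighbouring regions are not independent. The median gap of the Tmem120a knockdown list around the member was 64.6 kb where 1 end touched and 185 kb where neither did. Of the 3568 member ends, 2160 (60.5%) were set by a border in the Tmem120a knockdown list. The other 1408 ended where a LAD of another list ended, and 734 of those (52.1%) were borders of the double knockdown list, 367 (26.1%) of the adipocyte list and 330 (23.4%) of the preadipocyte list. Among the other lists, the double knockdown list thus set the most ends, and 16 ends were shared by more than 1 list.

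Holes bounded on both sides were more frequent among the stretches that the double knockdown list alone lacked, 48.9% (47.0 to 50.8), and less frequent for the preadipocyte list, 22.7% (20.3 to 25.2), and the adipocyte list, 9.13% (7.47 to 11.1). These intervals compare the lists and not the conditions. The lists also differ in their number of LADs, from 2542 in adipocytes and 3914 in preadipocytes to 5723 with Tmem120a knocked down and 6971 with both genes knocked down, for a similar LAD length of 1161 to 1198 Mb. The share of bounded holes rose in the same order as the number of LADs, and the part of the number of LADs in it was not tested.

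The profile of LAD calls around members describes their surroundings, and near the ends it is partly set by the rule, since 60.5% of the ends are borders of the Tmem120a knockdown list. At 1 kb outside a member end, 90.3% of positions were in a LAD in preadipocytes, 89.2% in adipocytes, 78.7% in the double knockdown and 61.3% in the Tmem120a knockdown. At 25 kb these were 80.7%, 81.5%, 68.9% and 70.3%. The stretches lacked by the double knockdown list alone gave a like profile for that list, with 67.4% at 1 kb and 73.1% at 25 kb, where the Tmem120a knockdown list stood at 75.2%. At 100 kb both knockdown lists stood at 64.1% (double) and 64.2% (single), below preadipocytes at 71.0% and adipocytes at 73.5%, and at 500 kb the 4 values were 55.5%, 57.7%, 51.9% and 51.5% for preadipocytes, adipocytes, double and single knockdown.

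**Figure D2:**
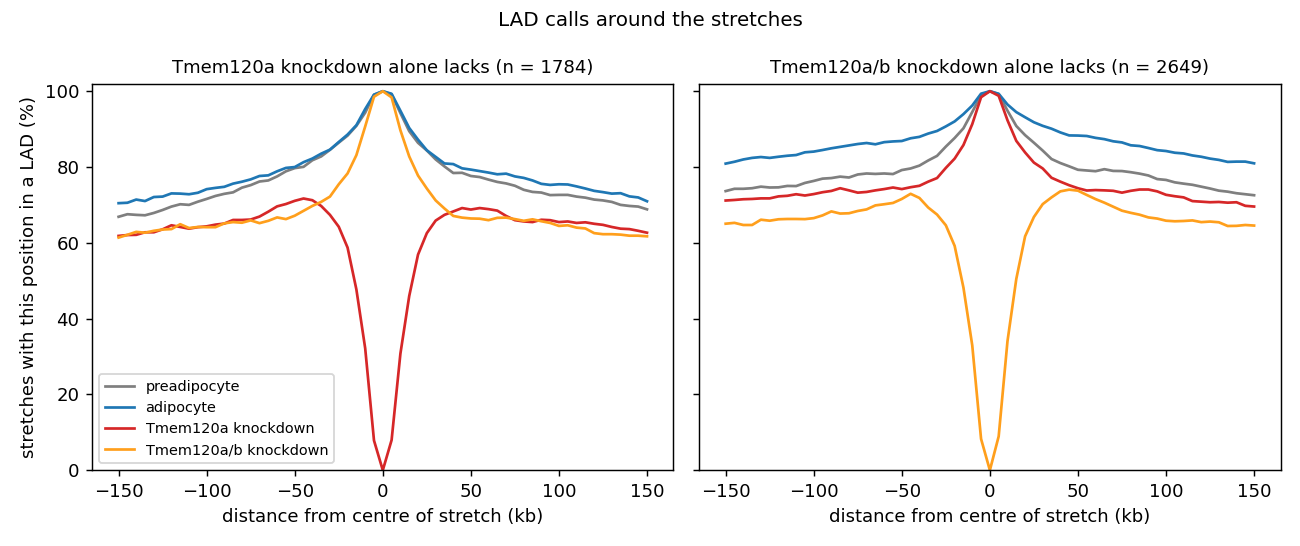
Share of stretches (%) with a given position inside a LAD of each of the 4 lists, against distance from the centre of the stretch in kb, for the 1784 members (left) and the 2649 stretches lacked by the double knockdown list alone (right). The values of 100% and 0% at the centre are set by the rule. The Tmem120a knockdown line returns to the height of the double knockdown line beside the members.

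Members lay in long LADs of the lists that held them. The LAD around a member had a median length of 453 kb in preadipocytes, 739 kb in adipocytes and 160 kb in the double knockdown, against 83.2, 103 and 60.7 kb for all LADs of these lists. A long LAD offers more bases in which a member can lie, and the part of this in the difference was not tested. Long LADs were not particular to members. The stretches lacked by the double knockdown list alone lay in LADs with medians of 623 kb in preadipocytes and 1439 kb in adipocytes. Those lacked by the preadipocyte list alone lay in adipocyte LADs of 834 kb, and those lacked by the adipocyte list alone in preadipocyte LADs of 155 kb. In adipocytes 736 members (41.3%) lay in a LAD of at least 1 Mb, in preadipocytes 411 (23.0%) and in the double knockdown 105 (5.89%). The median distance from a member's centre to the nearest border of its LAD was 86.9 kb in adipocytes, 60.6 kb in preadipocytes and 25.6 kb in the double knockdown. The member was a median of 3.06% of its LAD in adipocytes, 5.41% in preadipocytes and 14.2% in the double knockdown. Members that were a LAD in full numbered 36 in adipocytes, 19 in preadipocytes and 80 in the double knockdown.

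Seen from the LADs, 1031 of the 2542 adipocyte LADs (40.6%) held a member, 378 held 2 or more and 45 held 5 or more. Of these, 110 adipocyte LADs, 5.30 Mb in all and up to 459 kb long, met no Tmem120a knockdown LAD anywhere. The adipocyte LAD with the most members was chr10:34287727-36671369, which is 2384 kb long and held 13 members that sum to 372 kb. Of this LAD 83.5% was in preadipocyte LADs, 69.8% in Tmem120a knockdown LADs and 66.9% in double knockdown LADs. The median distance from a member to the nearest other member was 183 kb, and 391 members (21.9%) had another within 50 kb. Dense windows of 1 Mb reported here were on chromosome 7 from 37 Mb, with 4 members that sum to 284 kb, and on chromosome 1 from 76 Mb, with 7 members (232 kb).

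Members occurred on all 21 chromosomes, with 1599 on the 19 autosomes, 179 on X and 6 on Y. They took 4.58% of the LAD length common to the other 3 lists. Among the autosomes this share ran from 2.57% on chromosome 8 to 7.14% on chromosome 10, with a median of 4.75%. The X chromosome, at 5.22%, lay within this range. For the stretches lacked by the double knockdown list alone the share on X was 13.5%, above the highest autosome, also chromosome 10, at 9.38%. Chromosome 8 was again the lowest there, at 3.43%. Chromosome 10 was the highest autosome for the adipocyte list too, at 7.41%, and chromosome 15 for the preadipocyte list, at 6.63%. On Y the share in members was 15.6%, but of only 1.01 Mb of common LAD.

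**Figure D3:**
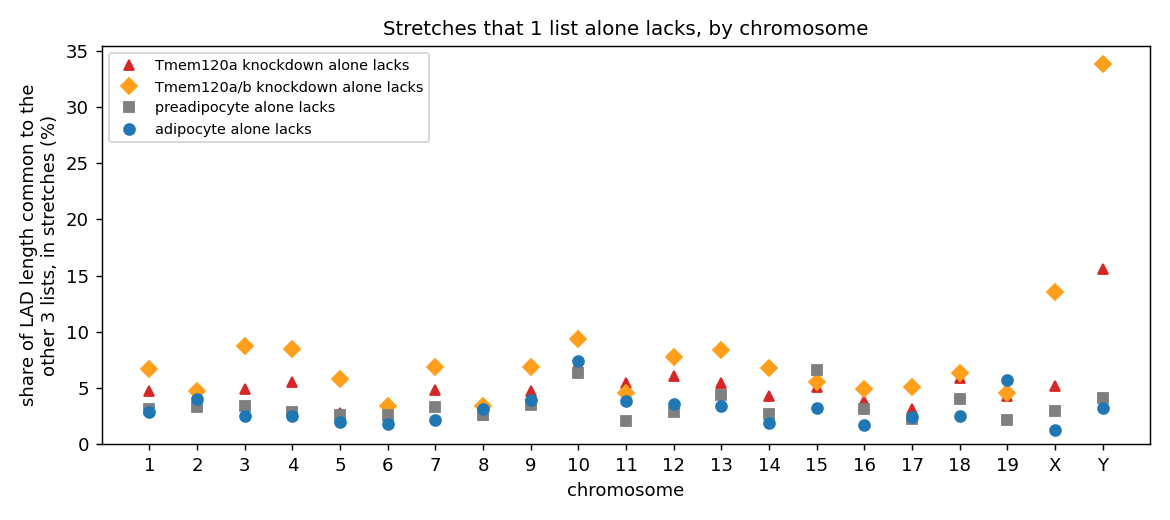
Share (%) of the LAD length common to the other 3 lists that lay in stretches of at least 8 kb lacked by 1 list alone, for each chromosome, with 1 marker per list. Chromosome 10 is the highest autosome for the members, at 7.14%, and also for the double knockdown and adipocyte lists. The X chromosome is high only for the double knockdown list, at 13.5%.

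The base composition of members lay between that of LADs of all 4 lists and that outside LADs, and nearer to the former. The median G+C content was 40.4% (95% interval of the median over regions 40.3 to 40.6), against 39.5% (39.4 to 39.6) in stretches in LADs of all 4 lists and 42.5% (42.4 to 42.7) in stretches in none. The stretches lacked by the double knockdown list alone were lower, at 39.1% (38.9 to 39.2), and those lacked by the adipocyte list alone higher, at 42.3% (42.1 to 42.5). GATC sites, which set the resolution, were 2.53 per kb in members, 2.60 in LADs of all 4 lists and 2.40 in none. CG pairs were 0.659 per 100 bases in members, 0.596 in LADs of all 4 lists and 0.925 outside LADs. Whether a member was bounded at both ends, 1 end or neither made little difference, with medians of 40.4%, 40.5% and 40.3% G+C.

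Member ends were also set against the regions that the authors' differential lists hold. No member overlaps either list, since members lie in LADs of both preadipocytes and adipocytes. Directly against a region released in adipogenesis (in LADs of preadipocytes alone) lay 195 members (10.9%, 9.57 to 12.5), and against a recruited region (in LADs of adipocytes alone) 174 (9.75%, 8.46 to 11.2). Of the stretches lacked by the double knockdown list alone, 4.79% (4.04 to 5.68) touched a released region and 13.8% (12.5 to 15.1) a recruited one. A stretch cut at an adipocyte or preadipocyte LAD border can touch such a region through the rule itself. These shares are thus partly set by how the stretches are cut.

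The longest member, chrX:121612597-121735094, measured 122 kb and touched no Tmem120a knockdown LAD, the gap in that list being 254 kb long. It lay in LADs of 237 kb in preadipocytes, 307 kb in adipocytes and 133 kb in the double knockdown, and held the whole of Gm17584, a predicted gene. The second, chr14:104856298-104977893, also of 122 kb, was a hole bounded on both sides within LADs of 1544 kb in preadipocytes, 1353 kb in adipocytes and 668 kb in the double knockdown. It held all of Pou4f1, which encodes a transcription factor of sensory neurons, and all of Rnf219, a RING finger gene. Of the 100 kb beyond each of its ends, all of the bases (100%) were in Tmem120a knockdown LADs and 94.1% in double knockdown LADs.

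The third, chr16:20969605-21081177 (112 kb), touched such a LAD at 1 end and held Gm6557. The next 7 held no protein-coding gene. They were chr12:70001522-70110387 (109 kb), chr7:37588612-37695327 (107 kb), chr8:118901334-119007684 (106 kb), chr14:18011647-18117132 (105 kb), chr9:117625139-117719475 (94.3 kb), chr10:34565331-34659222 (93.9 kb) and chr7:37941371-38032595 (91.2 kb). Of these 7, those on chromosomes 12 and 14 were bounded at both ends and those on chromosomes 9 and 10 at neither. Their nearest protein-coding genes were Rps29 at 148 kb, Tshz3 at 30.1 kb, Dynlrb2 at 21.2 kb, Rarb at 360 kb, Rbms3 at 86.1 kb, Frk at 234 kb and Zfp536 at 71.1 kb, in the order listed. Rarb encodes a retinoic acid receptor, and Tshz3 and Zfp536 are zinc finger transcription factors.

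**Figure D4:**
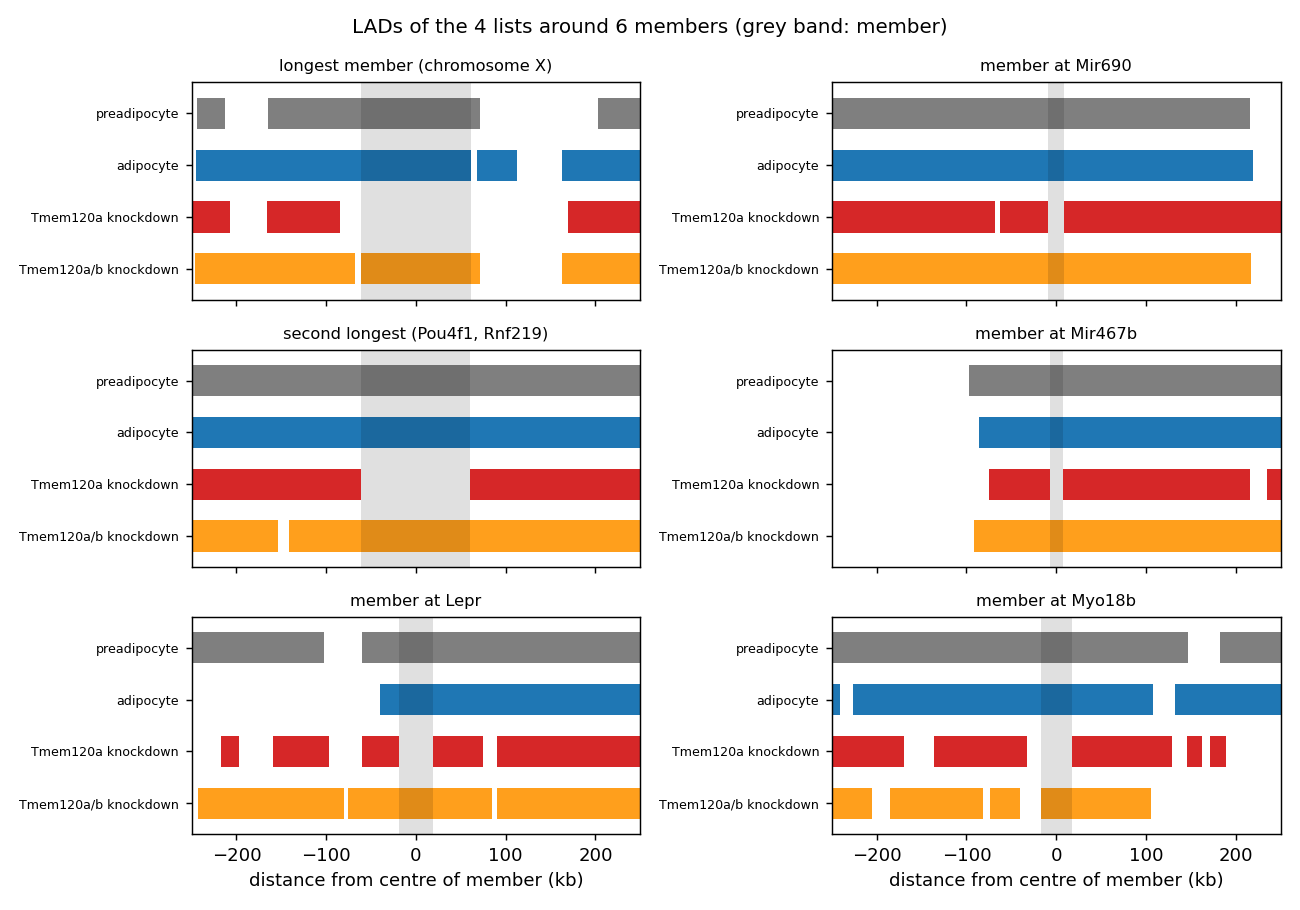
LADs of the 4 lists (bars, 1 row per list) within 250 kb of the centres of 6 members, against distance from the centre in kb, with the member as a grey band. The Mir690, Mir467b and Lepr members and that of Pou4f1 and Rnf219 are holes bounded on both sides in the Tmem120a knockdown row, and the longest member is not.

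Genes were few in members. Of the 1784, 1203 (67.4%) met no protein-coding gene, 170 (9.53%) held the start of one and 170 met introns only. The starts of 192 protein-coding genes lay in members, 4.35 per Mb, against 4.09 per Mb in LADs of all 4 lists, 3.30 in the stretches lacked by the double knockdown list alone and 13.0 outside LADs. Over stretches of any length, 208 of the 3951 starts in LADs of the other 3 lists lay outside Tmem120a knockdown LADs, which is 5.26% (4.61 to 6.01), near the share of bp. Without olfactory and vomeronasal receptor genes it was 6.93%. For the double knockdown list the shares were 6.21% and 7.92%. Over all genes, the preadipocyte list alone lacked 3.33% of starts and the adipocyte list alone 4.52%. Bodies overlapped members at 528 genes, and 99 genes lay wholly within one.

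Of the 192 genes, 117 had no part of their body in a Tmem120a knockdown LAD, and 99 of those lay in full in LADs of the other 3 lists. The body share in LADs was lowest in the Tmem120a knockdown list at 158 of them, and the start fixes part of this. The other genes lay at a border or were long enough to reach several LADs. The median body was 11.1 kb, against 4.65 kb for all genes with their start in LADs of the other 3 lists and 15.4 kb for all 22367 protein-coding genes.

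The genes with the longest part in members, 19 of the first 20, were next read over their whole bodies. Kcnk9 and Kcna6, which encode potassium channels, Rnf219, Fhl5, which encodes a LIM domain protein, and the vomeronasal receptor gene Vmn2r63 were 100% in LADs of preadipocytes, adipocytes and the double knockdown and 0% in the Tmem120a knockdown. Adcy1, an adenylate cyclase of neurons, was 51.7% in LADs in preadipocytes, 50.7% in adipocytes, 64.2% in the double knockdown and 0% in the Tmem120a knockdown. Sdk2, a cell adhesion gene, was at 81.1%, 40.6%, 50.2% and 9.51% in the same order.

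The 19 genes were ranked by their length in members, which lie outside Tmem120a knockdown LADs, so a low share there is partly set by the rule. The body was less in LADs in the Tmem120a knockdown than in any other list at 13 of the 19 genes. It was not so at Zfp536, a zinc finger gene, Celf4, an RNA-binding protein gene of neurons, Myo16, an unconventional myosin gene, Shroom2, which encodes an actin-binding protein, Cadm1, a cell adhesion gene, and Dlg2, which encodes a synaptic scaffold. Zfp536, whose body is 451 kb, was 62.7% in LADs of the Tmem120a knockdown, above its 57.1% in the double knockdown. Myo16 was between 24.3% and 27.6% in all 4 lists, although 38.9 kb of its 362-kb body lay in members. Plcl2, a phospholipase C-like gene, was at 31.3% in the Tmem120a knockdown against 62.0% to 100% elsewhere, and Lrfn2, a synaptic adhesion gene, at 75.5% against 96.0% to 100%. Wscd1 was at 22.5% in the Tmem120a knockdown and 100% in the other 3.

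**Figure D5:**
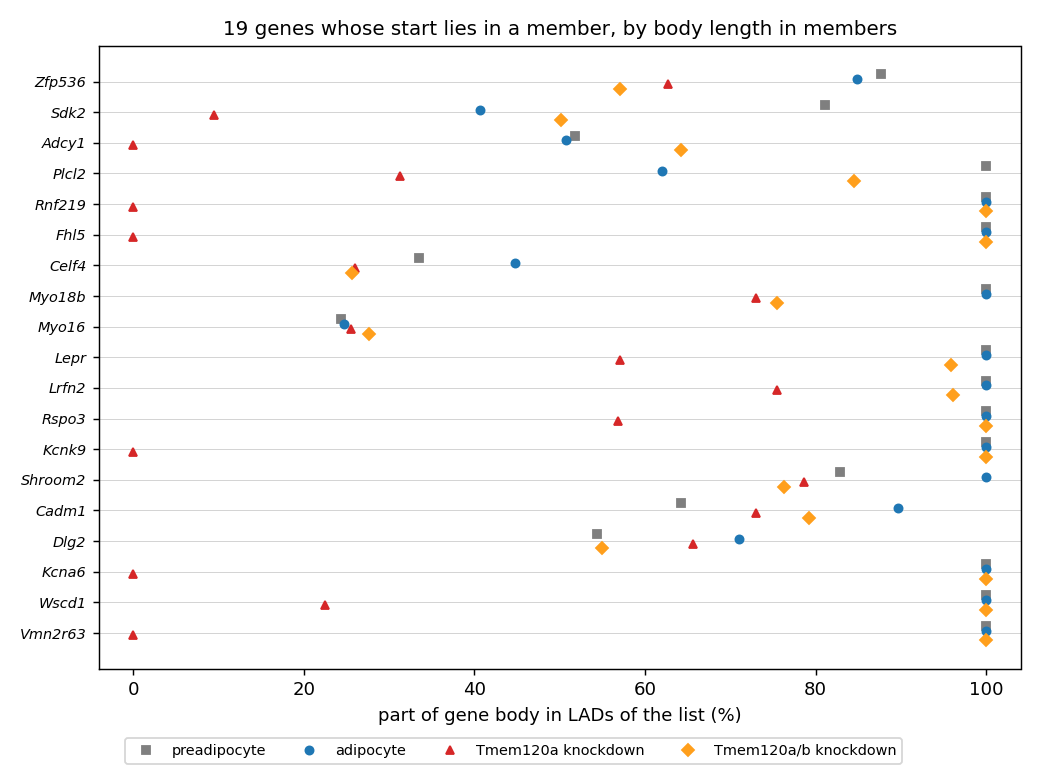
Part of the gene body in LADs (%) in each of the 4 lists for 19 of the 20 genes whose start lies in a member and whose body has the most bp in members. The Tmem120a knockdown marker is the lowest of the 4 at 13 genes and at 0% for 6, which the choice of genes by bp in members partly sets.

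Lepr, which encodes the leptin receptor, had its start in a member of 38.0 kb, chr4:101379891-101417919, that was a hole bounded on both sides. Its LAD was 819 kb long in preadipocytes, 790 kb in adipocytes and 160 kb in the double knockdown. The gene body was 100% in LADs in preadipocytes and adipocytes, 95.8% in the double knockdown and 57.0% in the Tmem120a knockdown. Rspo3, a secreted enhancer of Wnt signalling, started in a member of 24.6 kb and was 56.8% in LADs in the Tmem120a knockdown and 100% in the other lists. The members of Kcnk9 (64.1 kb, chr15:72336856-72400976) and Fhl5 (58.7 kb, chr4:25120611-25179355) held their whole genes.

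The 250 bases before the annotated start of these 4 genes lay in members and are shown as examples. They were chosen after the values had been seen. Each is from mm9, read on the gene's strand, with CG in capitals: chr4:101389759-101390008 (plus) for Lepr, chr10:29255674-29255923 (minus) for Rspo3, chr15:72376710-72376959 (minus) for Kcnk9 and chr4:25170024-25170273 (minus) for Fhl5.
Lepr: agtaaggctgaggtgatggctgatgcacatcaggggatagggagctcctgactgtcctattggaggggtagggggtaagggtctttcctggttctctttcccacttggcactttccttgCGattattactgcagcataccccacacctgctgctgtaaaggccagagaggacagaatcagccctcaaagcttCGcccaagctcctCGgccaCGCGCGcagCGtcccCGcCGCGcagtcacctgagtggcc
Rspo3: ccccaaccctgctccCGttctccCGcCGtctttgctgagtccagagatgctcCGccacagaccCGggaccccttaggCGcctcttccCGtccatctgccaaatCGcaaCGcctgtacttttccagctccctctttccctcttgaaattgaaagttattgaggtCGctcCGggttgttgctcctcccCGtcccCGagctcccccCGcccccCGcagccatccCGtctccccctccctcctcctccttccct
Kcnk9: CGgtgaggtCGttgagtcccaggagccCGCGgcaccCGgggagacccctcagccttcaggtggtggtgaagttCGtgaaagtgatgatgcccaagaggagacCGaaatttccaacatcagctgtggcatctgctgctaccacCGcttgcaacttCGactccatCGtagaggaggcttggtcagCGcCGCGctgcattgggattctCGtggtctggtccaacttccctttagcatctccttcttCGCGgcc
Fhl5: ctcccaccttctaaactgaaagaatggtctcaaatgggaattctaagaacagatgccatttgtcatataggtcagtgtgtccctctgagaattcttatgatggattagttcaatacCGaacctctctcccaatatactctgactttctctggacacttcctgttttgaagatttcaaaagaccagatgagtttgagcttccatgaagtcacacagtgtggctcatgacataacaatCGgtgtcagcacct

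The promoter of Lepr held 10 CG, those of Rspo3 and Kcnk9 16 each and that of Fhl5 2, and none of the 4 held a GATC in this window. The median over the 192 promoters in members was 3.5 CG, and 15.1% held none. Of the 192, 50 (26.0%) held at least 10 CG, against 10.4% for genes with their start in LADs of all 4 lists and 46.9% of all protein-coding genes. Receptor genes of smell make up much of the LAD genes, and without the olfactory and vomeronasal receptor genes the shares were 28.7% in members and 15.4% in LADs of all 4 lists. It was 27.6% for starts in the stretches lacked by the double knockdown list alone, so a higher share of CG-rich promoters was not particular to members. A GATC, a palindrome that reads alike on both strands, was in 38.5% of the promoters in members and 40.2% of all.

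The gene lists were read against the 5.26% of starts over all genes. Of the olfactory receptor genes 950 started in LADs of the other 3 lists, and 16 of those (1.68%) started outside Tmem120a knockdown LADs. Of the vomeronasal receptor genes 4 of 289 (1.38%) did, and of the keratin genes 0 of 19. Of the glutamate and GABA receptor genes it was 0 of 19, and of the cytochrome P450 genes 3 of 49 (6.12%), namely Cyp2c55, Cyp2j9 and Cyp3a57. For both families of receptor genes the share was thus below that over all genes. The same was so for the double knockdown list, with 22 of 956 olfactory (2.30%) and 9 of 294 vomeronasal receptor genes (3.06%) against its 6.21% over all genes.

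Of the potassium channel genes 4 of 22 (18.2%) started outside Tmem120a knockdown LADs, all in members: Kcna6, Kcnk9, Kcnj8 and Kcnmb1. Kcnj8, a channel subunit of vascular muscle, was 54.8% in LADs in preadipocytes, 82.1% in adipocytes, 100% in the double knockdown and 0% in the Tmem120a knockdown. Of the interleukin and interferon genes it was 4 of 19 (21.1%): Il17a and Il20, which encode secreted cytokines, and the receptor genes Il11ra2 and Il3ra. Il17a, Il20 and Il11ra2 were 100% in LADs of the other 3 lists and 0% in the Tmem120a knockdown, and Il3ra was at 73.0% there. Of the chemokine genes it was 2 of 8, Ccl27b, whose body went from 100% to 0%, and the receptor gene Cxcr4, at 65.2% against 100% in each of the other 3 lists. Il11ra2 and Ccl27b overlap on chromosome 4 and are not independent. Of the zinc finger genes it was 5 of 29 (17.2%): Zfp536, Zfp937, Zfp932, Zfp120 and Zfp820. The same counts for the double knockdown list were 1 of 19 potassium channel genes, 0 of 15 interleukin and interferon genes, 0 of 6 chemokine genes and 4 of 28 zinc finger genes. Other lists went the other way. For the double knockdown list it was 4 of 23 glutamate and GABA receptor genes (17.4%), 5 of 20 serpin genes (25%) and 4 of 25 cadherin and protocadherin genes (16%). For the Tmem120a knockdown list it was 2 of 17 serpin genes (11.8%), Serpinb6d and Serpina3j, and 2 of 23 cadherin and protocadherin genes (8.70%), Pcdh8 and Pcdhb22. These lists are small, and no test of them was made.

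Of all protein-coding genes 17.7% started in LADs of the other 3 lists. None of the 20 adipogenic transcription factors and none of the 26 lipid storage and adipokine genes started in LADs of the other 3 lists. None of them could therefore have its start in a member. Of 12 thermogenic genes 1 did, and it stayed in Tmem120a knockdown LADs. Of the 51 Wnt pathway genes 2 did, and both were outside them: Rspo3, and Sfrp1, a secreted Wnt inhibitor whose start lay in a member. The body of Sfrp1 was 76.6% in LADs of the Tmem120a knockdown, 72.9% in adipocytes and 100% in preadipocytes and the double knockdown. Of the muscle genes 2 of 5 (40%) were: Myh2, a heavy chain of skeletal muscle myosin, and Myo18b, an unconventional myosin of muscle. For the double knockdown list 4 of 7 muscle genes (57.1%) were outside its LADs. Of Col9a1, the only collagen gene of 5, 75.6% stayed in Tmem120a knockdown LADs and 19.0% in double knockdown LADs.

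Of the genes the study discusses, Myh2, Myo18b, Ano5, Mir690 and copies of miR-467 met a member. Of 23 genes listed from the study, miRNA genes not counted, 2 started in LADs of the other 3 lists. Both, Myh2 and Myo18b, started in members. Over all protein-coding genes, 0.858% started in a member and 2.36% met one. The study's genes are few, and no test of them was made. Myh2 had 6.40 kb of its 26.5 kb in a member that held its start. Its body was 24.1% in LADs in preadipocytes, 92.6% in adipocytes, 44.8% in the double knockdown and 0% in the Tmem120a knockdown, so that most of it was not in LADs of all the other 3 lists. The start of Myo18b lay in a member of 34.4 kb, chr5:113318652-113353073, bounded at 1 end, which also met an exon of Adrbk2. The body of Myo18b was 100% in LADs in preadipocytes and adipocytes, 73.0% in the Tmem120a knockdown and a similar 75.4% in the double knockdown. The start of Ano5, a membrane protein gene of muscle, lay in Tmem120a knockdown LADs, and 10.02 kb of its body lay in members.

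The starts of 53 miRNA genes lay in members, in 18 of them. Over stretches of any length, 55 of the 417 miRNA gene starts in LADs of the other 3 lists (13.2%) lay outside Tmem120a knockdown LADs. Without the array of miRNA genes inside Sfmbt2 it was 20 of 298 (6.71%), close to the 5.26% of protein-coding starts. The Mir690 member, chr16:28594293-28612616, was an 18.3-kb hole in LADs of 1353 kb in preadipocytes, 1351 kb in adipocytes and 1067 kb in the double knockdown, bounded on both sides, and 97.3% of the 100 kb beyond each end was in Tmem120a knockdown LADs. Mir153 lay in a member of 12.4 kb that meets an exon of Ptprn2, a gene for a phosphatase-like protein of secretory granules, and Mir384 in a member of 13.5 kb on chromosome X. The mature forms of these 3, from RefSeq (GRCm38.p6), have their seeds, bases 2 to 8, in capitals and share none of them.
miR-690: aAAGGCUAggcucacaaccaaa
miR-153-3p: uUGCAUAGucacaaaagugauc
miR-153-5p: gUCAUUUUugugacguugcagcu
miR-384-3p: aUUCCUAGaaauuguucacaau
miR-384-5p: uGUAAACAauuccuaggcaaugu

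A single member of 14.4 kb, chr2:10402553-10416917, held 35 of the 53 miRNA genes. It lay in an intron of Sfmbt2, a Polycomb-related gene that hosts a long array of miRNA genes, and was bounded by Tmem120a knockdown LADs on both sides. Of these 35 genes 16 have a miRNA name, among them Mir466c-1, Mir669a-5, Mir466c-2, Mir669a-6, Mir466b-4, Mir669a-7 and Mir466b-5. The copies of miR-467, a miRNA the study discusses, that lay in this member were Mir467b, Mir467a-3, Mir467a-4 and Mir467a-5. The array inside Sfmbt2 has 119 annotated miRNA genes over 53.0 kb. All 119 lay in LADs of preadipocytes, adipocytes and the double knockdown, and 84 in LADs of the Tmem120a knockdown. The body of Sfmbt2 was 91.0% in LADs in preadipocytes, 85.7% in adipocytes, 88.3% in the double knockdown and 74.4% in the Tmem120a knockdown. The array is made of near-identical copies between which mapping could split reads. The part of such mapping in the hole was not tested. Besides these, only Mir153, Mir690, Mir384 and mmu-mir-1194 carry a miRNA name among those in members.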

How the data were processed

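The authors mapped reads to mm9, took log ratios of LaminB1-Dam to Dam per DpnI fragment and segmented them with DNAcopy into LADs. The submitters' processing notes also name BWA and limma. The deposited files hold positions (chromosome, start, end) and no signal, so depth is unknown. Lists were assigned to conditions by the abbreviations they carry. Starts were read as counting from 0 and are given counting from 1.

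Lists were overlapped and subtracted base by base (Python 3.11.15, numpy 2.4.6), and this was checked on simulated lists. Wilson intervals (95%) came from scipy 1.17.1 and plots from matplotlib 3.10.9. Sequence was NCBIM37 and genes GENCODE vM1. A gene counted as in a state by its start. The RefSeq miRNA table held mature sequences for 3 of the 20 named miRNA genes in members. The sequence of chromosome 18 was not printed.

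The members and the gene lists were chosen with earlier results of these data known. Named were the 10 longest members, the 3 longest of each flank class, the 3 on either side of the length limit, the 20 genes with the longest part in members, genes wholly in the 10 longest, up to 10 miRNA genes in chromosome order, up to 5 genes of each list, and genes the study discusses. One of the 20 genes is not reported here. Others were named after their values were seen. Alternatives were other length limits, short LADs removed, short gaps closed, wider LADs, a list left out and autosomes only.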

Additional observations from a re-analysis of the deposited data

How the results depend on the processing

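Of 92 values under alternative settings, 64 stayed within the interval of the value reported or within 1.5 times of it, and 28 did not. With a limit of 16 kb there were 1143 members, and 1698 and 739 stretches for the double knockdown and preadipocyte lists. With 30 kb there were 498 members (22.2 Mb, 83 gene starts, 40.8% G+C), and 787, 346 and 295 stretches for the double knockdown, preadipocyte and adipocyte lists. Without the double knockdown list in the rule the members summed to 79.0 Mb with 326 gene starts, 40.1% G+C, 7.78% of LAD length and 7.96% of starts. On autosomes alone G+C was 40.7%. The share of members bounded on both sides was 43.0% with a limit of 4 kb, 36.1% with 16 kb, 32.4% with gaps under 20 kb closed, 33.8% with Tmem120a knockdown LADs widened by 5 kb, 35.7% without the preadipocyte list, 44.4% without the double knockdown list and 42.9% when a LAD within 5 kb counted. The share of gene starts was 3.87% with widened LADs, 6.61% without the preadipocyte list, 3.71% by at least 50% of the body and 6.93% without olfactory and vomeronasal receptor genes, an alternative chosen after seeing the data. By any overlap of the body, 528 genes met members. No paired analysis was possible because each condition has 1 list, which also leaves no replicate to leave out. The cause of these shifts was not tested.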
